A study of Mus musculus with 7 samples.

Results

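Lamin-associated domains (LADs) are stretches of chromatin that lie against the nuclear lamina, the protein mesh under the nuclear envelope of which Lamin B1 is a part. They were described by mapping Lamin B1, and in many cell types they are poor in genes, low in transcription and long. The domains described here are short ones: the autosomal LADs of a mouse embryonic fibroblast line that measured at least 200 kb and less than 500 kb. Of 1437 LADs in the list used, 1128 lay on the 19 autosomes and 235 of these (20.8%) met the length rule. They added up to 78.0 Mb, or 6.62% of the autosomal LAD bases. The domains were chosen by their measured length, so length is given only as a description: it ran from 202.5 to 499.999 kb, with a median of 322.5 kb and quartiles of 258.7 and 396.2 kb.

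The series profiled cells labelled iMEF, a mouse embryonic fibroblast line, by CUT&RUN, in which an antibody directs a nuclease to cut out the DNA around its target. The 7 libraries comprised 2 of Lamin B1, 2 of IgG as control, 1 of H3K14ac, and 1 of H3K9me2 with each of the antibodies ab1220 and 39041. According to the series' design text the fibroblast lines were derived independently from a single colony of mice, and the labels give no strain, sex, age or treatment. The words wild type and merged appear in the list's name alone, and that it rests on the pooled Lamin B1 libraries was inferred from that name and its content of LADs. Single libraries were not analysed here. Depth and replicate error of a domain are therefore unknown, and the IgG and histone mark libraries enter no value below. Chromosomes serve below as units of spread (SD over autosomes), but they are not replicates, and no difference was tested.

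The promoters of genes with their midpoint in these LADs ranged widely in sequence. In mammals, promoters of broadly used genes are usually rich in the dinucleotide CpG, whereas many tissue-restricted promoters have lost it. Promoters here are the RefSeq windows (GRCm38.p6, the assembly of mm10) from 250 bases before to 50 bases after the start that the RefSeq table used for a gene. That start can differ from the outer 5′ end of the gene, which is what a gene's start means elsewhere below: they lay within 100 bp of each other in 219 of 283 genes in these LADs on the 16 autosomes compared, and over 1 kb apart in 28. The CpG ratio is the observed number of CG dinucleotides over the number expected from the C and G content. The 6 promoters below are written 5′ to 3′ on the strand of the gene, with every CG in capitals. Sdhaf3, which encodes an assembly factor of succinate dehydrogenase, had the highest ratio of the genes in these LADs, and the collagen gene Col28a1 was among the 28 of those 283 at 0. The other 4 belong to loci described below and were picked after the values were seen: Ppp4r4 (a regulatory subunit of protein phosphatase 4) and Serpina1a (the plasma protease inhibitor alpha-1-antitrypsin) from 1 LAD on chromosome 12, Mmp13 (a collagenase) from chromosome 9 and Slamf1 (an immune cell receptor) from chromosome 1.
Sdhaf3: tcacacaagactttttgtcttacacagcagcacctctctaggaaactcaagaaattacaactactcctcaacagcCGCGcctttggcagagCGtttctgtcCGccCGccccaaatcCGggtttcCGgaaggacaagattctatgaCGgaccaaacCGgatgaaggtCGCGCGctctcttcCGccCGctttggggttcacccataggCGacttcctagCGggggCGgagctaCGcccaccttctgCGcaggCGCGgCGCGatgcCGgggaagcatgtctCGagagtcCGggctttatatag
Col28a1: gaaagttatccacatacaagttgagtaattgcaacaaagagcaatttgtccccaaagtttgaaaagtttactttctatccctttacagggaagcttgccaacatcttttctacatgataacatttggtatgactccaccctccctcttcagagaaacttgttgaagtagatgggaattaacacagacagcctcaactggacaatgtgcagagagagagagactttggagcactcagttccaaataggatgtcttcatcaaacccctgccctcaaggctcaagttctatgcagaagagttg
Ppp4r4: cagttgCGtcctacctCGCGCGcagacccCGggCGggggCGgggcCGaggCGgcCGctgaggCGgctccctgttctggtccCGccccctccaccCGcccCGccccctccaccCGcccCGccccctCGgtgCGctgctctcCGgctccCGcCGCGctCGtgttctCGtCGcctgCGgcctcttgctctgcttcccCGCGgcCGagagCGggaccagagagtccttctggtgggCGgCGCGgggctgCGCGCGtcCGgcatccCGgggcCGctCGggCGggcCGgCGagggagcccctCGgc
Serpina1a: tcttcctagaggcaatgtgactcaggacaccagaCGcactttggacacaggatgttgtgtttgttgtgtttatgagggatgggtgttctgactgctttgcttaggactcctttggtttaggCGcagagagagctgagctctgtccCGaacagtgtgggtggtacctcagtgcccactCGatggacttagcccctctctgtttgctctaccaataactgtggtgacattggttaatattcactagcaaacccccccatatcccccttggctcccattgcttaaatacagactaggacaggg
Mmp13: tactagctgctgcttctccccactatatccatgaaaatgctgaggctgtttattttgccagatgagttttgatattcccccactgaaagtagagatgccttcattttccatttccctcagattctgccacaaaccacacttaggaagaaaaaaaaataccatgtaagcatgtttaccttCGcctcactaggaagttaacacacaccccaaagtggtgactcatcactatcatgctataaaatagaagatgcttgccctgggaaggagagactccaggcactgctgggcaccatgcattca
Slamf1: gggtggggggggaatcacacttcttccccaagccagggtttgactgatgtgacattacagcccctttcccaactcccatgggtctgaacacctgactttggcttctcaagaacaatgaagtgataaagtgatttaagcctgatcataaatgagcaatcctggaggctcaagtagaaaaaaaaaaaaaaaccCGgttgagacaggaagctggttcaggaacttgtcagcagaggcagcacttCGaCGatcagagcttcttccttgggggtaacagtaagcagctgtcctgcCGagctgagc

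The Sdhaf3 window (chr6:6955768-6956067, plus strand) held 26 CG and had a CpG ratio of 1.05. That of Col28a1 (chr6:8192568-8192867, minus strand) held 0 and lies inside the gene, 1.09 kb from its outer end. Both of these genes start outside any LAD. The Ppp4r4 window (chr12:103532315-103532614, plus strand) held 44 CG at a ratio of 0.935 and lay outside its LAD, with the gene's outer end 5.17 kb before the border and the start used for the window 4.85 kb before it. Serpina1a (chr12:103863570-103863869, minus strand) held 4 CG at a ratio of 0.213 and lay inside the same LAD. The Mmp13 window (chr9:7272264-7272563, plus strand) had 1 CG and a ratio of 0.0722, and lay just outside the LAD that holds the gene's midpoint. Slamf1 (chr1:171766882-171767181, plus strand) had 4 CG, a ratio of 0.223 and a place inside its LAD. A single LAD could thus hold the body of a gene with a CpG-dense start and the whole of a gene with a CpG-sparse one.

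Protein-coding genes were sparser in these LADs than between LADs, with a mean above that of the longest LADs but within the spread over chromosomes. A gene was placed where its midpoint lies, and 371 of 20665 autosomal protein-coding genes (1.80%) had theirs in a LAD of 200 to 500 kb. The density was 4.73 ± 2.08 protein-coding genes per Mb (SD, n = 19 autosomes). Between LADs it was 12.8 ± 3.32 genes per Mb, and the short LADs were below that value of their own chromosome on 19 of 19 autosomes. LADs of 1.5 Mb or more held 3.54 ± 2.26 genes per Mb, and the LADs of 200 to 500 kb were above them on 15 of 19 autosomes. Against LADs of 0.5 to 1.5 Mb (4.61 ± 1.67 genes per Mb) they were higher on 10 autosomes and lower on 9. Against LADs under 200 kb (5.26 ± 3.34) they were higher on 12 and lower on 7, and the SDs of all 4 length classes overlapped. Single autosomes ran from 1.82 genes per Mb on chromosome 11 to 9.23 on chromosome 19. Chromosome 12, with 8.75, and chromosome 19 hold serpin and olfactory receptor clusters described below.

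**Figure D1:**
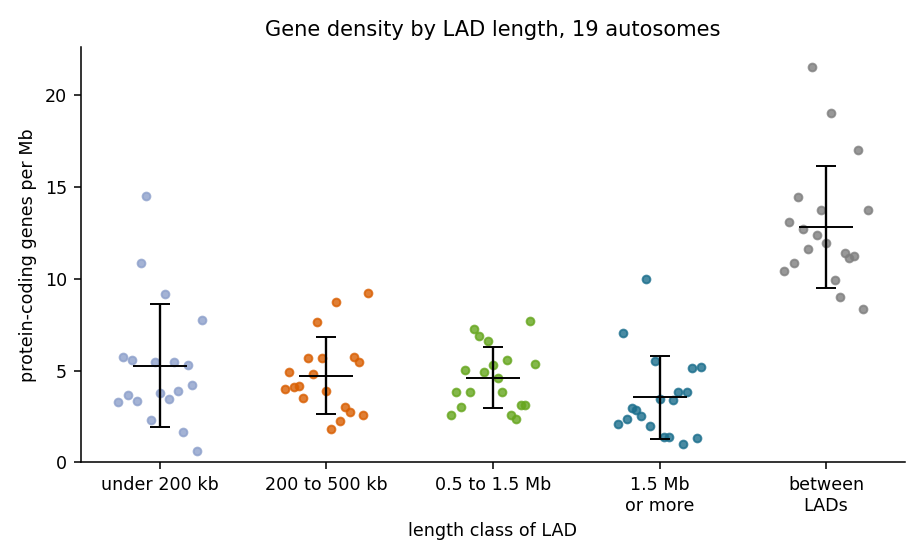
Protein-coding genes per Mb in 4 length classes of LADs and between LADs. Each point is 1 of 19 autosomes, the horizontal line the mean and the bar 1 SD. The points for LADs of 200 to 500 kb run from 1.82 to 9.23 genes per Mb, and those between LADs from 8.37 to 21.6.

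The genes were unevenly shared among the 235 LADs. No protein-coding gene midpoint lay in 85 of them (36.2%), against 30.9% of all 1128 autosomal LADs. A single gene lay in 79, a pair in 25 and at least 3 genes in 46, which together held 242 of the 371 genes (65.2%). Per autosome the share without a gene was 36.6 ± 14.3% (SD, n = 19). It was 61.5 ± 17.2% for LADs under 200 kb and 17.3 ± 12.6% for LADs of 0.5 to 1.5 Mb. Such shares follow in part from length, since a shorter interval has less room for a midpoint. Of the 85, 57 overlapped no protein-coding gene at all and 28 overlapped part of one. The 57 were 24.3% of the 235, against 21.5% of all autosomal LADs. Genes covered 38.1% of the bases of these LADs, 38.5% of those of LADs under 200 kb, 25.3% of those of LADs of 1.5 Mb or more and 53.3% of the sequence between LADs. Their genes had a median length of 22.7 kb, between the 30.2 kb of LADs under 200 kb and the 17.3 kb of LADs of 0.5 to 1.5 Mb. It was 6.51 kb in LADs of 1.5 Mb or more and 18.9 kb between LADs.

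The gene-richest of these LADs were clusters of chemosensory receptors and of secreted proteins. The LAD at chr4:118650548-118975546 (325.0 kb) held 14 protein-coding genes, 13 of them olfactory receptor genes (Olfr62 and Olfr1328 to Olfr1342) beside Lao1, an L-amino acid oxidase. The LAD at chr19:12056053-12403551 (347.5 kb) held 14, all olfactory receptors, among them Olfr1424 and Olfr76. The LAD at chr6:42699513-43192010 (492.5 kb) held 13, all olfactory receptors, among them Olfr453 and Olfr13. Olfactory receptors are odour receptors of the sensory neurons of the nose, and 976 of their 1104 autosomal genes lay in some LAD. Of the 1104, 42 (3.804%) lay in LADs of 200 to 500 kb, in 4 domains, beside 1.80% of all genes. Most of the 976, namely 808, lay in LADs of 1.5 Mb or more, and the 42 were 4.30% of the 976, whereas 371 of the 4720 protein-coding genes in LADs lay in LADs of 200 to 500 kb.

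The next 2 by gene number were neighbours and held most of a serpin cluster. Serpins are protease inhibitors, and the Serpina genes encode mostly plasma proteins made in the liver. The LAD at chr12:103537417-104014914 (477.5 kb) held 12 genes: Ppp4r4 and 11 serpins, from Serpina10 to Serpina9, including Serpina6 (corticosteroid-binding globulin) and the alpha-1-antitrypsin genes Serpina1a to Serpina1e. The LAD at chr12:104082415-104399913 (317.5 kb) held 10 genes, Serpina5 and 9 genes of the Serpina3 group. The gap of 67.5 kb between them held Serpina12, which encodes vaspin. Of the 62 autosomal serpin genes, 35 lay in a LAD and 22 (35.5%) in LADs of 200 to 500 kb, beside the 1.80% of all genes. These 22 genes came from 3 LADs, 1 of which held Serpini1 alone of its family, the neuronal serpin neuroserpin. The count depended on how the borders were drawn: with LADs separated by at most 100 kb joined into longer ones, 1 of the 22 was left, and with limits of 250 and 450 kb 11 were. The Serpina1 and Serpina3 genes are closely related copies, and how reads that fit several copies were treated is not given in the sources used here.

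Genes of the Mmp, Adam and Adamts families also clustered in these LADs. Of 81 autosomal Mmp, Adam and Adamts genes, 32 lay in a LAD and 18 (22.2%) in 6 LADs of 200 to 500 kb, beside 1.80% of all genes. Of the 18, 9 came from chr9:7274062-7681560 (407.5 kb), which held no other protein-coding gene. They were the collagenases Mmp13, Mmp1a, Mmp1b and Mmp8, the stromelysins Mmp3 and Mmp10, the macrophage elastase Mmp12, Mmp27 and the enamel protease Mmp20. Promoter CpG ratios of these 9 ran from 0 (Mmp12, Mmp1a, Mmp1b and Mmp20) to 0.270 (Mmp27), so none was CpG-rich. Another 4 genes, Adam24, Adam25, Adam20 and Adam39, shared a LAD on chromosome 8 (chr8:40640580-40903078). The longest of the group were Adam12 and Adam22, a brain protein without protease activity whose LAD (chr5:8072287-8374785) was covered to 97.8% by the gene.

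**Figure D2:**
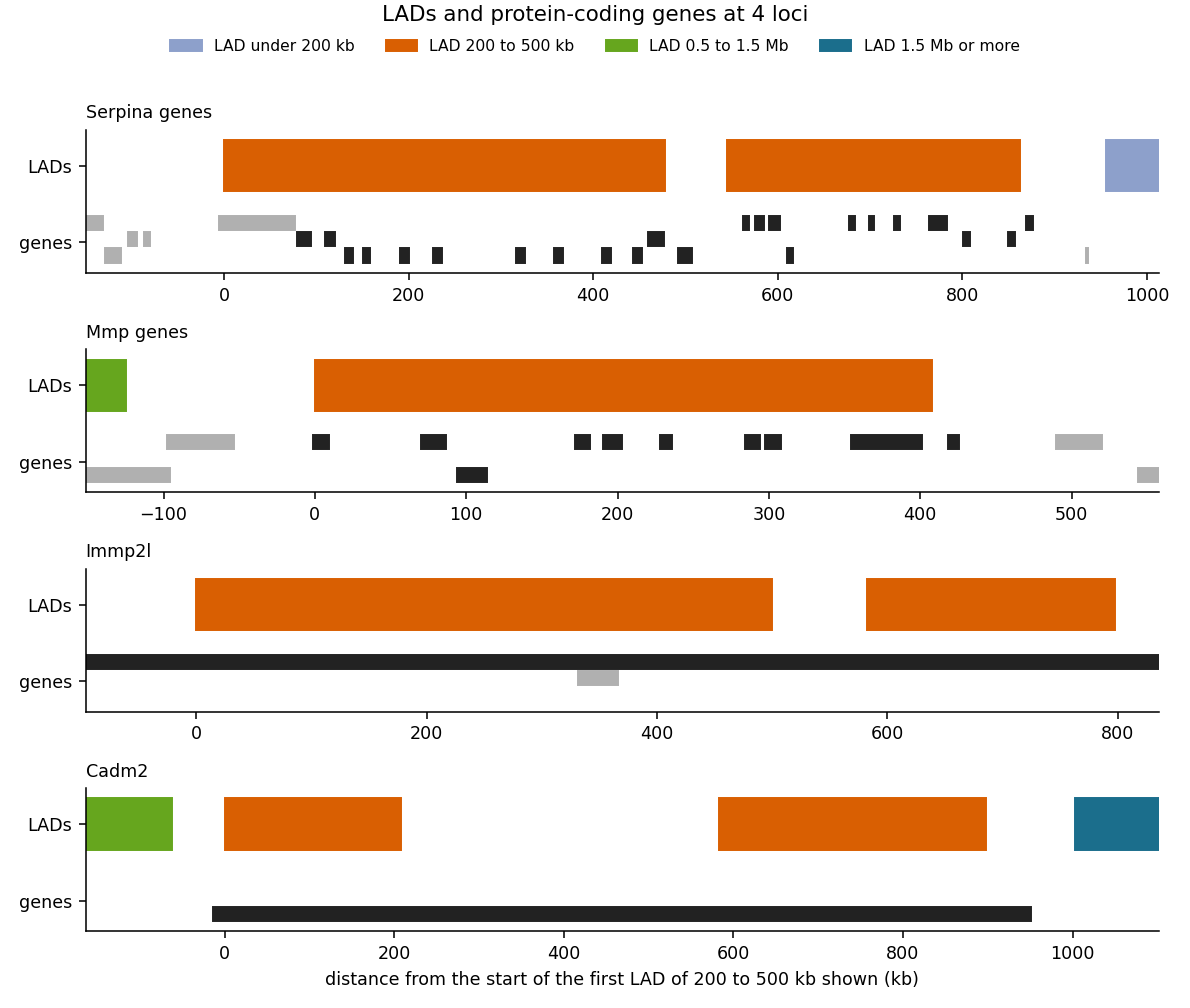
Maps of 4 loci: LADs (upper bars, coloured by length class) and protein-coding genes (lower bars), with distance in kb from the start of the first LAD of 200 to 500 kb shown. Genes on the plus strand are drawn high, those on the minus strand low and those with no strand entry in the middle, and genes of the named family are dark. In the Serpina map a gap of 67.5 kb parts LADs of 477.5 and 317.5 kb.

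In all, 15 of the 235 LADs (6.38%) held at least 3 genes whose symbols begin with the same run of at least 3 letters up to the first digit, against 11.2% of all autosomal LADs. This count was added after the values were seen and misses families with shorter stems, such as Cd209. The 15 LADs held 110 such genes, 29.6% of the 371, under 12 symbol stems. Beside receptors, serpins and Mmp genes they included 7 Ces2 carboxylesterase genes on chromosome 8, 6 Tcl1 genes on chromosome 12, 5 Hsd3b steroid dehydrogenase genes on chromosome 3 and 4 Tmprss11 serine protease genes on chromosome 5. The LAD at chr1:171539458-172004456 held 8 genes, among them Cd244a, Ly9, Slamf7, Cd48, Slamf1, Cd84 and Slamf6, the receptors of the signalling lymphocyte activation family on immune cells. The LAD at chr8:3735696-4163194 held 7 protein-coding genes, all Cd209 lectin receptors of immune cells.

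The other gene lists gave small counts, to be read beside the 1.80% of all genes. Potassium channels had 6 of 91 genes in 5 of these LADs: Kcnh1, Kcnj6, Kcnd3, Kcnk10 and Kcns3, with Kcnj15 beside Kcnj6 in 1 LAD. Only 1 of the 6 lay wholly inside, and limits of 250 and 450 kb left 2. Solute carriers had 9 of 362 (2.49%, near that share), including the organic anion transporter genes Slc22a26 to Slc22a30, and joining LADs at 100 kb left 4 and limits of 250 and 450 kb left 1. Collagens had 3 of 42: Col9a1 and Col19a1, neighbours on chromosome 1, and Col28a1. Vomeronasal receptors, which detect pheromones, had 5 of 354 (1.41%, also near it), whereas 325 of the 354 lay in some LAD. Zinc finger genes had 1 of 458. Of 25 lists, 14 had at least 1 gene in these LADs.

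Several lists with many genes in LADs had 0 in LADs of this length. Cadherins and protocadherins, which join neighbouring cells, had 54 of 95 genes in LADs and 0 here. Cytochromes P450, the oxidases of drug and steroid metabolism, had 52 of 99 and 0. Homeobox, Fox, Sox and Tbx transcription factors had 32 of 215 and 0, and keratins 24 of 109 and 0. For receptors of glutamate, GABA and glycine the counts were 28 of 44 and 0. Of all genes 1.80% lay in LADs of this length, and of the 4720 protein-coding genes in any LAD 371 did. A list of this size would hold few at the rate of all genes, and more at that of genes in LADs. No difference was tested, so a count of 0 is not read as one.

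Fibroblast markers were placed relative to the LADs, though their places are no check of the cell label. None of the 16 on the list used, such as Col1a1, Col3a1, Vim and Thy1, had a midpoint in any LAD, where 22.8% of autosomal protein-coding genes had one. The lists of histones (0 of 80) and proteasome subunits (0 of 45) also had none, so this does not tell fibroblasts from other cells. For LADs of 200 to 500 kb alone, with 1.80% of all genes, a count of 0 of 16 is not read as a difference. The median distance of the markers from the nearest LAD was 696.3 kb, and for 6 of the 16 the nearest LAD was one of 200 to 500 kb. Fap, which encodes fibroblast activation protein and is not on that list, had its midpoint in the LAD at chr2:62347214-62589712 and took up 30.8% of its bases; it was added after its value was seen. The marker closest to a LAD was Postn, which encodes the matrix protein periostin, at 51.7 kb. Pdgfra, a growth factor receptor of fibroblasts, lay 97.3 kb from the LAD at chr5:75272074-75747072, whose only protein-coding gene was Kit, the stem cell factor receptor of mast cells and melanocytes. None of 15 genes of the lamina and the inner nuclear membrane had its midpoint in a LAD, although part of Syne1, which encodes a nuclear envelope linker protein, lay in the LAD at chr10:5526063-5766062 and took up 10.3% of its bases. The list of domains holds no expression values, so these places say nothing of transcript levels.

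A group of these LADs lay inside single long genes. In 30 of the 235 (12.8%), at least 90% of the bases fell in 1 protein-coding gene, against 10.3% of all autosomal LADs. The share was 25.8% for LADs under 200 kb, 1.63% for those of 0.5 to 1.5 Mb and 0.361% for those of 1.5 Mb or more. A longer LAD can lie in fewer genes, so this order follows in part from length. With the requirement lowered to 50% of the bases the count was 69, with limits of 250 and 450 kb it was 18, and with LADs at most 100 kb apart joined it was 16. The 30 LADs lay in 28 genes with a median length of 437.4 kb.

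Of the 30, 18 lay wholly inside 1 gene. They tie at 100%, so the account is not held to the first 5. The longest (chr12:41120114-41620112, 499.999 kb) lay in Immp2l, a mitochondrial peptidase gene of 931.5 kb, which held another of 215.0 kb. Cadm2, a cell adhesion gene of neurons, also held a pair, of 315.0 and 207.5 kb. LADs of 450 kb in Wwox (chr8:114647845-115097843), 425.0 kb in Ctnna3 (chr10:63600880-64025877) and 422.5 kb in Ppargc1a (chr5:51599649-52022147) came next. Wwox encodes an oxidoreductase, Ctnna3 an alpha-catenin of heart and testis, and Ppargc1a a coactivator of mitochondrial genes. The LAD in Macrod2 (chr2:140884465-141231963) measured 347.5 kb and lay in the longest gene of the group, 1998 kb. Others lay in Hpse2, Lrmda, Pcca, Dnah7a, Itga9, Camkmt, Cfap61, Tenm3 and Erbb4. They include genes of neurons (Tenm3, Erbb4), an integrin (Itga9), a carboxylase subunit (Pcca) and a ciliary dynein (Dnah7a). The count of 18 rests on genes taken between their outer ends. For Ppargc1a the start used for the promoter window lay 548.1 kb from the outer end, which leaves the LAD of 422.5 kb upstream of that start. For Itga9 the window's start lay 105.0 kb from the outer end, inside the LAD.

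The starts of these genes were placed next. Of the 16 genes that hold a whole LAD of 200 to 500 kb, 14 had a strand in the RefSeq promoter table. The starts of 12 of the 14 lay outside any LAD, where 77.0% of 16457 autosomal protein-coding genes with a strand did so, a share near that of the 14. With the starts that the windows use, it was 11 of the 14. Those 12 starts were 10.0 to 174.2 kb from the nearest such LAD, with a median of 91.4 kb. Hpse2, a heparanase-like gene, was nearest at 10.0 kb, and Lrmda, a gene of melanocyte differentiation, farthest at 174.2 kb. The exceptions were Macrod2 and Tenm3, which started in LADs of other lengths.

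**Figure D3:**
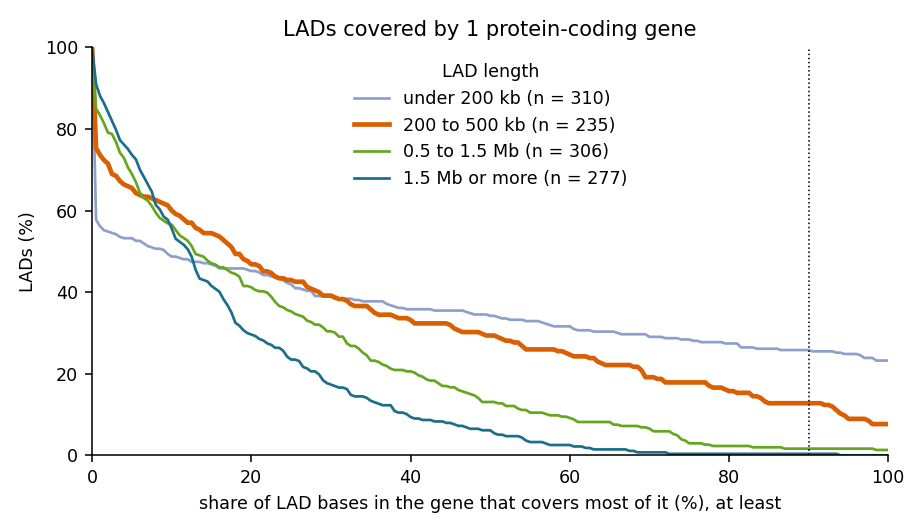
Share of LADs (y axis, percent) in which the gene covering most of the LAD takes up at least the share of bases on the x axis, for 4 length classes. At 90% of bases the curve for LADs of 200 to 500 kb stands at 12.8%, below the 25.8% of LADs under 200 kb and above the 1.63% of LADs of 0.5 to 1.5 Mb.

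CpG content of promoters was low in these LADs. Promoter windows were compared on 16 autosomes, because on chromosomes 8, 15 and 18 fewer than 80% of genes, or none, had one. This restriction was set after the table was seen, and 283 of 326 genes (86.8%) in LADs of 200 to 500 kb then had a window. Their median CpG ratio was 0.270, with quartiles of 0.117 and 0.517. The median was 0.697 between LADs, 0.361 in LADs under 200 kb, 0.233 in LADs of 0.5 to 1.5 Mb and 0.169 in LADs of 1.5 Mb or more. With CpG-rich taken as a ratio of at least 0.6, 57 of the 283 promoters (20.1%) were CpG-rich, against 49.4% of all 15310. The share was 59.7% between LADs and 14.7% in LADs of 1.5 Mb or more. Much of that last difference went with receptor genes: without olfactory and vomeronasal receptors the shares were 23.7% in LADs of 200 to 500 kb, 23.1% in LADs of 1.5 Mb or more and 60.3% between LADs.

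CpG-rich genes placed in these LADs by midpoint started beyond the border more often than CpG-poor ones, and those that did were long. Of the 57, 17 (29.8%) started outside any LAD, against 22 of the 226 CpG-poor genes (9.73%). With the starts that the windows use, these counts were 17 and 18. The 17 CpG-rich genes were 81.6 to 931.5 kb long, against a median of 22.7 kb for all genes in these LADs. A short gene with its midpoint inside has little room to start outside. How far the contrast goes with gene length was not tested. Among the 17 were Sdhaf3, Immp2l, Cacnb2 (a calcium channel subunit), Epha7 (a guidance receptor) and Kcnh1. The other 40 started inside. They included Kcnj6, a channel gene with a ratio of 1.04 whose start lay 160.8 kb from the nearer border, and Reln, the gene of the neuronal matrix protein reelin, with 1.01 and 130.0 kb. Neurod1, a transcription factor of neurons and endocrine cells, had 0.837 and lay 20.5 kb inside. Prdm16, a regulator of brown fat, had 0.939 at 165.6 kb, and Kit had 0.621 at 172.1 kb. Broadly used genes were also among the 40, such as C1galt1, a glycosyltransferase gene (1.02 at 70.6 kb), Polr3k, a subunit of RNA polymerase III (0.697 at 167.5 kb), and Cenpw, a centromere protein gene (0.828 at 19.6 kb). These 8 were picked after their values were seen, and the files give no reading of their activity.

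CpG-rich starts were fewer just inside the borders of these LADs than just outside, and CpG-poor starts were about as many. Starts were counted in 25 kb steps on each side of every border, outward no farther than midway to the next LAD, a profile added after the values were seen. In the 50 kb outside, CpG-rich starts numbered 4.14 ± 2.24 per Mb (SD, n = 16 autosomes). In the 50 kb inside they numbered 0.748 ± 1.09 per Mb. The outside value was the higher on 15 of 16 autosomes and equal on 1. CpG-poor starts numbered 3.37 ± 2.66 per Mb outside and 3.40 ± 2.60 inside, with the outside higher on 9 autosomes and the inside on 6. CpG-rich starts thus made up 54.4% of starts in the last 50 kb outside and 20.8% in the first 50 kb inside. Pooled over autosomes, they numbered 4.15 per Mb in the last 50 kb outside and 0.777 in the first 50 kb inside. At 50 to 100 kb from the border they numbered 5.50 outside and 0.631 inside, so the difference was not confined to the border.

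Borders of LADs of 1.5 Mb or more showed the same order. Their CpG-rich starts numbered 5.77 ± 1.91 per Mb outside and 1.28 ± 0.822 inside, higher outside on 16 of 16 autosomes. The nearest start within 50 kb outside a border of a LAD of 200 to 500 kb pointed away from it in 65 of 117 cases (55.6%), and at LADs of 1.5 Mb or more in 91 of 169 (53.8%). Of the 470 borders on all 19 autosomes, 181 (38.5%) fell within a protein-coding gene, near the 35.8% of the borders of all autosomal LADs.

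**Figure D4:**
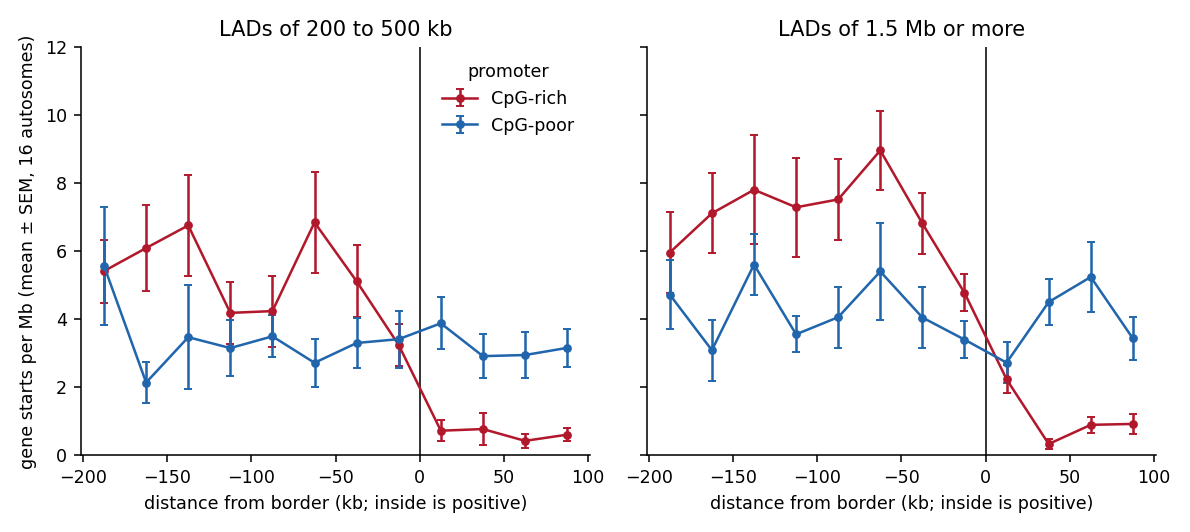
Gene starts per Mb (mean ± SEM, 16 autosomes) in 25 kb steps around LAD borders, outside at negative and inside at positive distances, for CpG-rich and CpG-poor promoters. At LADs of 200 to 500 kb (left) CpG-rich starts stand at 3.24 per Mb in the last step outside and 0.724 in the first step inside, whereas CpG-poor starts stand at 3.42 and 3.88. Chromosomes are not replicates, so the bars measure no replicate error. The SD of CpG-rich starts in the last step outside was 2.44 per Mb.

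These LADs usually had a close neighbour on at least 1 side, as did LADs of the other lengths. They had 460 flanking gaps, with a median of 246.2 kb and quartiles of 117.5 and 919.4 kb. Of these, 233 (50.7%) were at most 250 kb, and per autosome the share was 48.9 ± 11.1% (SD, n = 19). It was 50.8 ± 11.7% for LADs under 200 kb and 41.1 ± 13.4% for LADs of 1.5 Mb or more, so the classes overlapped. Of the 225 LADs with a gap on each side, 59 had a short gap on both, 109 on 1 side and 57 (25.3%) on neither. The share with a short gap on neither side was 23.1% for LADs under 200 kb. It was 34.7% both for LADs of 0.5 to 1.5 Mb and for those of 1.5 Mb or more. The neighbour was another LAD of 200 to 500 kb in 102 of 460 cases (22.2%), and such LADs made up 20.8% of the autosomal ones. The 207 separate gaps of at most 250 kb beside these LADs overlapped a protein-coding gene in 78.7% of cases and held 9.45 genes per Mb. The 202 longer gaps held 12.8 genes per Mb.

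**Figure D5:**
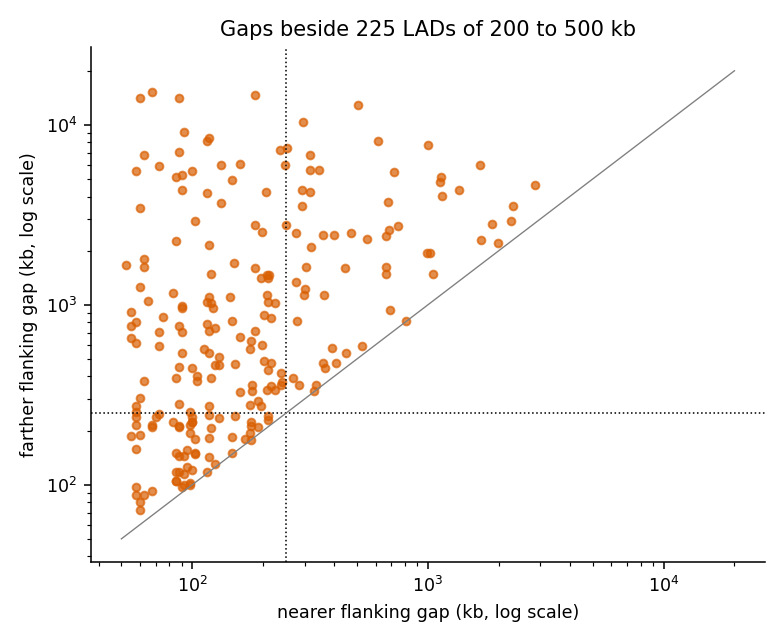
Nearer (x axis) and farther (y axis) flanking gap in kb, both on log scales, of the 225 LADs of 200 to 500 kb with a gap on each side. Dotted lines mark 250 kb and the grey line marks equal gaps: 59 points lie below 250 kb on both axes and 13 beyond 1 Mb on both.

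The length limits fall within a continuous range. Just inside the lower limit were LADs of 202.5 kb (chr18:54163846-54366344, mm10), 205.0 kb (chr1:68794784-68999782) and 207.5 kb (chr16:66669457-66876955). Just outside it were the LADs at chr3:46700963-46900961, chr16:90469382-90669380 and chr11:90407888-90607886, of 199.999 kb each. Just inside the upper limit lay chr5:116534444-117034441, chr12:10625211-11125208 and chr12:41120114-41620112, which measured between 499.998 and 499.999 kb. Just outside it were LADs of 507.498 kb (chr7:131027213-131534710), 507.499 kb (chr15:31663582-32171080) and 509.999 kb (chr12:30065149-30575147). Of the 235 LADs, 14 lay within 10 kb of a limit and 51 within 25 kb. All 235 lengths were within 10 bp of a multiple of 2.5 kb, so ends fall on a grid of about that step; how precisely they are known was not tested.

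In 13 of the 225 LADs with a gap on each side (5.78%) the nearer gap was at least 1.0 Mb, against 7.34% of all autosomal LADs. The most isolated was the LAD in Hpse2 (chr19:43048455-43378453, 330.0 kb), with gaps of 2847 and 4620 kb. The LAD at chr18:64001315-64261313 (260.0 kb) held no protein-coding gene midpoint and had gaps of 3565 and 2297 kb. The olfactory receptor LAD on chromosome 4 had gaps of 2935 and 2252 kb. The LAD at chr11:21708105-21933104 (225.0 kb), covered to 84.7% by Wdpcp, a gene of cilium formation, had gaps of 1977 and 2207 kb. The Kit LAD (475.0 kb) had gaps of 2820 and 1865 kb. The 5 most isolated LADs thus differed in gene content, from 14 genes to none.

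LADs without any annotated gene midpoint, coding or not, numbered 11 of the 235, against 8.60% of all autosomal LADs and 85 of the 310 under 200 kb. The longest, chr17:59781400-60111398 (330.0 kb), overlapped no protein-coding gene. Another, of 325.0 kb, lay wholly inside Lrmda (chr14:22193752-22518750).

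The LADs of 200 to 500 kb were found on every autosome, from 5 on chromosomes 15 and 16 to 23 on chromosome 4. Their number was 1.01 ± 0.346 per 10 Mb of span (SD, n = 19), lowest on chromosome 15 (0.502) and highest on chromosome 19 (1.90). The span runs from the first to the last LAD of a chromosome. Split into 3 equal stretches from the centromere end, the spans held 81, 81 and 73 of them.

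The LADs held 7 microRNA genes, or 0.0705 ± 0.0992 per Mb (SD, n = 19 autosomes), against 0.760 ± 0.268 between LADs. Their density was below that between LADs on 19 of 19 autosomes. LADs of 0.5 to 1.5 Mb held 0.370 ± 0.848 and those of 1.5 Mb or more 0.0809 ± 0.0409. RefSeq gives 9 mature sequences for the 7 genes. Their seeds (bases 2 to 8, in capitals below), which lead the pairing with target transcripts, were all different except for a pair shared by miR-7683-3p, from a gene within Slamf7 in the chromosome 1 immune receptor LAD, and miR-7010-5p, from a gene within Gucy1a1 on chromosome 3. Both are shown 5′ to 3′ with the arms of Mir491, which lies in Focad in a LAD covered to 93.4% by that gene.
mmu-miR-7683-3p: uGGAAAGGuggaacacggaac
mmu-miR-7010-5p: cGGAAAGGauugggaaacuuga
mmu-miR-491-5p: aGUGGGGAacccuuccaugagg
mmu-miR-491-3p: cUUAUGCAagauucccuucuac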

How the data were processed

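Lamin B1, IgG, H3K9me2 and H3K14ac were profiled in 7 CUT&RUN libraries. The authors deposited 1 list of domains in BED format, whose values are start and end positions in base pairs; per the submitters' processing notes Bowtie2 and the build mm10 were used. The domain caller, its threshold and the use of IgG or spike-in are not given in the sources used here. The score column held 0 throughout, so no signal, fold or p-value was used.

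Domains were classed by length, and RefSeq genes (GRCm38.p6) were placed by midpoint within each chromosome's span, from its first to its last LAD; 749 autosomal protein-coding genes lay outside the spans. Scripts ran in Python 3.11.15 with pandas 2.3.3, numpy 2.4.6 and matplotlib 3.10.9, and the interval code was tested on simulated data. Gene lists were matched by symbol. No test was run: there is 1 list and no replicate value. Regions named were those nearest each limit, the 5 with most genes, the 5 most isolated, the 5 with the largest share in 1 gene (here 18 tied) and the 3 longest without an annotated midpoint; further gene clusters were named after their values were seen. The members and lists were chosen with earlier results of these data known. A region that this rule names is not reported here. The closing section gives the alternatives.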

Additional observations from a re-analysis of the deposited data

How the results depend on the processing

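Of 78 recomputed values, 61 moved by less than the spread over chromosomes or, for counts and the ratio of starts, by no more than 1.5 times; the count of LADs in 1 gene was at that bound, 45 against 30, with limits of 150 and 550 kb. The gene density was 13.6 per Mb with all annotated genes counted. The share of LADs without a gene was 59.6% when a gene had to lie wholly inside and 4.68% with all annotated genes. The share of flanking gaps counted as short was 38.2% with LADs at most 100 kb apart joined and 32.6% with short set at 150 kb. The number of LADs in 1 gene was 69 at 50% of bases, 18 with all bases required, 18 with limits of 250 and 450 kb and 16 with LADs joined. The number per 10 Mb was 1.36 with limits of 150 and 550 kb and 0.627 with limits of 250 and 450 kb. Each of these alternatives changes what is counted: wider limits gave 320 LADs, narrower ones 151, and joining gave 171 among 933. The ratio of CpG-rich starts outside to inside the borders was 5.35 and ran down to 4.28 under its alternatives, which were chosen after seeing the data, as were those on gene lists and chromosomes.

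No paired analysis was possible because the list carries nothing per replicate. The fits that omit a replicate could not be run either. Read depth is unknown, so how many short gaps and short domains depend on it was not tested.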

Other observations

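Non-coding and decayed genes in the LADs of 200 to 500 kb did not all follow the protein-coding ones. Long non-coding RNA genes numbered 4.15 ± 1.36 per Mb (SD, n = 19 autosomes) against 7.22 ± 0.565 between LADs, and were below the value between LADs on 18 of 19 autosomes. Pseudogenes numbered 4.31 ± 1.83 per Mb against 3.75 ± 0.485, and were below on 6 of 19.

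The sequence TATAAA, searched on both strands of the 300-base promoter windows of 16 autosomes, was in 51 of 283 windows (18.02%) of genes in LADs of 200 to 500 kb. It was in 13.7% of all windows, 9.60% of those between LADs and 30.5% of those in LADs of 1.5 Mb or more. A match is a description of these letters only.

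Some of the LADs stood in runs. Where neighbours of this length were at most 250 kb apart, 22 runs were formed, 18 of 2 LADs and 4 of 3, with 48 LADs in all. The longest run, chr12:102889919-104399913, spanned 1510 kb with gaps of 210.0 and 67.5 kb, held 26 protein-coding genes and included both serpin LADs. The next, chr11:63437973-64882968, spanned 1445 kb with 1 gene. In 4 of the 22 runs there was no protein-coding midpoint.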
